A study of Mus musculus with 26 samples.

Results

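Tbx21, which encodes T-bet, and Eomes, which encodes eomesodermin, were followed in thymic progenitors and natural killer T (NKT) cells of the mouse. Both were chosen by gene symbol, and they are 2 of the 23168 symbols used. RNA was sequenced in 26 libraries from thymocytes of C57BL/6 mice aged 6 to 8 weeks, and levels were deposited as FPKM, sequenced fragments scaled to transcript length and library size. DN1eP cells (4 libraries) were sorted as Lin-, CD44+, CD25-, CD24low, CD5+, CD27+, Ly108- and CXCR3+ thymocytes with no Valpha14Jalpha18 T cell receptor at the surface. DN1eP-NKT cells (4 libraries) had this receptor and were obtained from DN1eP by culture for 10 days on a layer of OP9/Dll-1 stroma, with IL-2 and IL-7 at 5 ng/ml each. Thymic NKT cells bound a CD1d dimer loaded with alphaGalCer and carried TCRbeta. They were split into stage 1 (NKT-1, CD44- NK1.1-, 5 libraries), stage 2 (NKT-2, CD44+ NK1.1-, 7 libraries) and stage 3 (NKT-3, CD44+ NK1.1+, 6 libraries). Whether libraries of 1 group stem from different animals is not stated in the labels. The p-values hence speak only for the spread among these samples, which may be technical.

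T-bet and eomesodermin are T-box transcription factors that bind related DNA sites and share many targets in natural killer (NK) cells and T cells. Both act on genes of the type 1 programme, such as those for interferon gamma, cytotoxic granule proteins and the IL-2 receptor beta chain. In thymic NKT cells, T-bet is known for its part in the step to NK1.1+ cells, whereas eomesodermin is better known from NK cells and memory CD8 T cells.

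In the deposited mm9 coordinates, Tbx21 lies at chr11:96959321-96976645 and Eomes at chr9:118387307-118395250, each with 1 start site. Their promoter windows, taken from RefSeq on build GRCm38.p6, are shown so that the sequence around each start site can be read beside the expression values. Each window runs from 250 bases before to 50 bases after the start, 5′ to 3′ along the gene, at chr11:97115282-97115581 on the minus strand for Tbx21 and chr9:118477939-118478238 on the plus strand for Eomes. Capitals mark matches on either strand to the GC box GGGCGG, the CCAAT box CCAAT and the TATA box letters TATAAA or TATATAA.
Tbx21: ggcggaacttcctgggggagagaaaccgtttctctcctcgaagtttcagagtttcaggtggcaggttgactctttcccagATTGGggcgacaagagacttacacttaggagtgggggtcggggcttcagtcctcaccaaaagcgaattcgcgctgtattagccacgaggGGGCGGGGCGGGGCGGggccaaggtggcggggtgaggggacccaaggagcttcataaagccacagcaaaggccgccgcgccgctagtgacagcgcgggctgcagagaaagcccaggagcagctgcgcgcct
Eomes: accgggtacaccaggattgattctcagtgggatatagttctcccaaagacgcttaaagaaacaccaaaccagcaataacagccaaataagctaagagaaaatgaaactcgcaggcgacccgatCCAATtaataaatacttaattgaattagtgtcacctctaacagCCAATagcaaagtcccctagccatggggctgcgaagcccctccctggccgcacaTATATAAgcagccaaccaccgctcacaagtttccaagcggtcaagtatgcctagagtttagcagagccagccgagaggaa
The Tbx21 window was 62.0% G and C, above 75.3% of all 32851 windows, and held 3 overlapping GC boxes and 1 CCAAT match. The Eomes window was 47.3% G and C, above 29.7% of windows, and held 2 CCAAT matches and 1 TATATAA beginning 30 bases before the start. Among all windows, 35.7% held GGGCGG, 37.4% held CCAAT, 13.6% held TATAAA and 3.24% held TATATAA. The T-box half-site GGTGTGA, present in 3.98% of windows, was found in neither on either strand. These matches describe letters in the windows and were not tested for a function.

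The libraries fell into 2 sets of 13 by median expression, taken for each library over its genes with at least 1 FPKM. This median was 7.58 to 9.80 in set A and 12.96 to 13.91 in set B. Set A holds all 4 DN1eP and 9 thymic libraries, and set B all 4 DN1eP-NKT and the other 9 thymic libraries. Either a SMARTer Ultra Low Input or a TruSeq v2 kit was used, with no record of which library had which in the sources used here. Groups were therefore compared within a set. Depth, estimated from the deposited intervals, was 1.2 to 32.4 M (mega) fragments in set A and 1.29 to 18.1 M in set B. Library 1 of DN1eP (21.9 M) and of DN1eP-NKT (18.1 M) was far deeper than the others of its group. DN1eP libraries 2 to 4 had 1.2 to 2.13 M fragments, whereas all 9 thymic libraries of set A had 22.2 to 32.4 M. For DN1eP libraries 2 to 4, depth and group can therefore not be told apart within set A. Over 11663 genes, libraries 2 to 4 correlated with each other at r of 0.934 to 0.940 in DN1eP and 0.939 to 0.956 in DN1eP-NKT, and with library 1 at 0.883 to 0.907 and 0.904 to 0.925. T cell genes (Cd3d, Cd3e, Cd3g, Cd247, Cd5, Cd2, Lck and Zap70) were present in every group, at a summed 4940 to 7090 FPKM in DN1eP against 3390 to 6410 FPKM in the thymic stages of set A, and 1380 to 2000 FPKM in DN1eP-NKT against 1990 to 3430 FPKM in those of set B. Of these 8 genes, 0 were higher and 5 lower in DN1eP-NKT than in NKT-3, beside 15.0% and 8.39% of all genes. Their median difference in log2(FPKM + 1) was -0.723, against 0.0501 over all genes. In these bulk samples, fewer cells of a type and less RNA per cell cannot be told apart.

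Tbx21 was highest in stage 3 within the thymic series of both sets. In set A it stood at 2.20, 2.99 and 1.89 FPKM in NKT-1, at 5.38, 1.67 and 3.82 FPKM in NKT-2 and at 16.6, 15.1 and 13.7 FPKM in NKT-3. In set B it stood at 14.5 and 30.2 FPKM in NKT-1, at 26.8, 42.4, 38.7 and 56.1 FPKM in NKT-2 and at 118, 84.0 and 103 FPKM in NKT-3. All stage 3 libraries lay above all libraries of the other two stages of their set, whereas NKT-1 and NKT-2 overlapped in both.

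Between stages 3 and 1, Tbx21 averaged 15.1 ± 1.44 FPKM in NKT-3 and 2.36 ± 0.567 FPKM in NKT-1 of set A (SD, n = 3 each), a 6.41-fold ratio of means. The difference in log2(FPKM + 1) was 2.27 ± 0.34 (SE, limma adjusted p = 1.54e-05), where 5.24% of all genes tested were called higher in NKT-3. In set B the means were 102 ± 16.9 FPKM in NKT-3 (n = 3) and 22.4 ± 11.1 FPKM in NKT-1 (n = 2), and the difference was 2.21 ± 0.38 (limma adjusted p = 8.13e-05), where 8.14% of genes were called higher. Both differences thus passed the threshold of 0.05 on the adjusted p, over all 11663 genes.

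The step between stages 2 and 3 passed the test in both sets. Tbx21 was higher in NKT-3 than in NKT-2 by 1.89 ± 0.34 in set A (limma adjusted p = 0.000293, 3.78% of genes called higher) and by 1.32 ± 0.31 in set B (limma adjusted p = 0.00304, 8.64% called higher). NKT-2 minus NKT-1 was 0.38 ± 0.34 in set A (limma adjusted p = 0.726) and 0.89 ± 0.36 in set B (limma adjusted p = 0.851), neither past the threshold. In that step few genes passed at all, 0.489% in set A and 0.214% in set B in either direction. The stage differences of Tbx21 were also set against each other: set B minus set A was -0.07 ± 0.50 for NKT-3 minus NKT-1 (limma adjusted p = 0.987) and -0.57 ± 0.46 for NKT-3 minus NKT-2 (adjusted p = 1).

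The level of Tbx21 at a given stage depended on the set. After allowing for stage, Tbx21 was 2.90 ± 0.18 higher on the log2(FPKM + 1) scale in the thymic libraries of set B than in those of set A (limma adjusted p = 3.19e-12). For Eomes the same difference was 0.20 ± 0.13 (adjusted p = 0.159). A difference between the sets was common, since 74.7% of all genes tested were called in either direction. DN1eP and DN1eP-NKT were for this reason tested against thymic libraries of their own set.

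**Figure D1:**
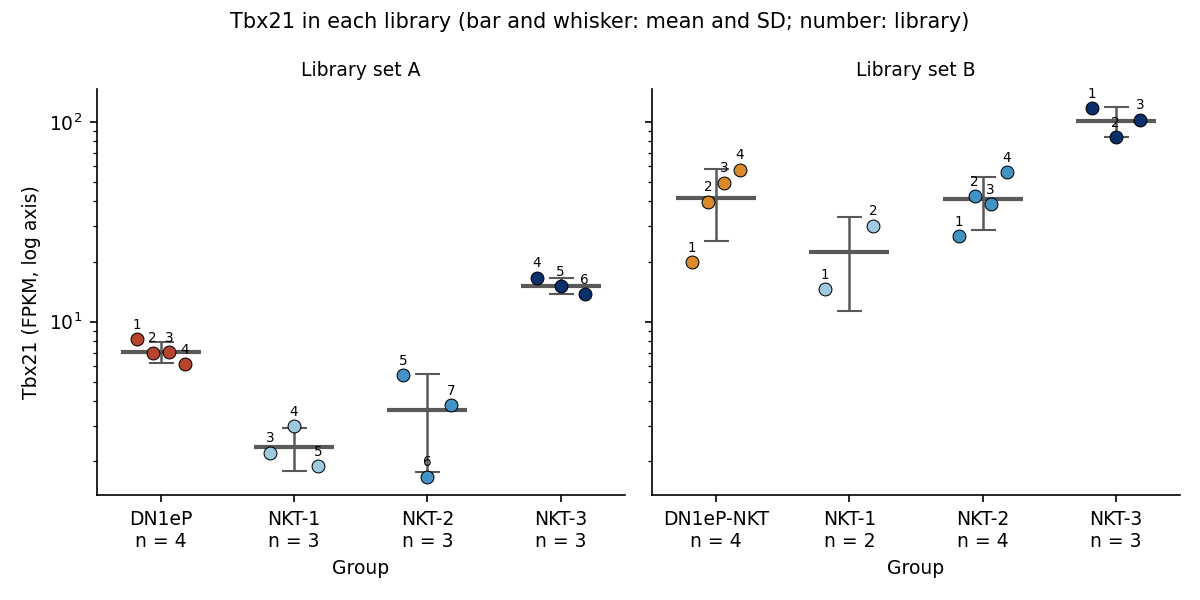
Tbx21 in each library, in FPKM on a log axis, for set A (left) and set B (right), with 1 numbered point a library and the mean and SD of each group. NKT-3 lies at 13.7 to 16.6 FPKM in set A and 84.0 to 118 FPKM in set B, above every other library of its set.

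DN1eP cells held Tbx21 between the stages, above NKT-1 and NKT-2 and below NKT-3. The 4 DN1eP libraries stood at 8.15, 6.98, 7.01 and 6.12 FPKM, a mean of 7.07 ± 0.833 FPKM, against 1.67 to 5.38 FPKM in stages 1 and 2 and 13.7 to 16.6 FPKM in stage 3. No DN1eP value lay within the range of any of the stages. In DN1eP libraries 2 to 4, only 21.5 to 33.2 fragments lie behind each value. The deposited intervals of these libraries, such as 3.82 to 8.25 FPKM in library 4, overlap that of NKT-2 library 5, at 4.45 to 6.15 FPKM.

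Tbx21 was higher in DN1eP than in NKT-1 by 1.27 ± 0.31 (limma adjusted p = 0.00287), where 14.7% of genes were called higher. DN1eP minus NKT-2 was 0.89 ± 0.31 (limma adjusted p = 0.0351), where 17.9% of genes were called higher. DN1eP minus NKT-3 was -1.0 ± 0.31 (limma adjusted p = 0.0249), where 4.42% were called lower. The last 2 calls were lost when single libraries were left out. For NKT-2 these were DN1eP library 1, 2 or 3 and NKT-2 library 6 or 7, and for NKT-3 they were DN1eP library 2 or 4 and NKT-3 library 4, 5 or 6. Without NKT-2 library 6 the difference to NKT-2 was 0.54 (limma adjusted p = 0.243), and without NKT-3 library 4 the difference to NKT-3 was -0.94 (limma adjusted p = 0.0754). NKT-2 library 6, the lowest Tbx21 value of all, also stood apart in markers of other cells. Summed B cell markers were 147 FPKM there and 6.04 to 11.9 FPKM in the other NKT-2 libraries of set A, and erythroid markers were 199 FPKM and 0.0111 to 0.985 FPKM. Myeloid and mast cell markers were 64.5 FPKM in library 6 and 0.225 to 8.13 FPKM in the others. Gamma-delta T cell markers were 210 FPKM and 49.0 to 57.3 FPKM, but only 3 of the 7 listed had values (Sox13, Blk and 5830411N06Rik). Blk alone stood at 143 FPKM in library 6, whereas Sox13 was at 1.85 FPKM there and 1.19 to 1.72 FPKM in the others. Blk is also on the list of NKT2 and NKT17 genes treated below. Of that list, Ccr6 was at 102 FPKM in library 6 and 13.3 to 15.5 FPKM in the others. Il23r was at 59.0 FPKM there and 10.6 to 18.7 FPKM in the others, and Il1r1 at 59.6 FPKM and 8.87 to 12.3 FPKM. Il17a, Il17f and Il22 lay between the values of the others, Il17a at 4.16 FPKM against 2.49 and 13.3 FPKM. Erythroid markers were also high in NKT-3 library 5, at 827 FPKM against 14.1 to 14.2 FPKM in the other NKT-3 libraries of set A. B cell markers were 46.7 FPKM in that library and 1.98 to 3.06 FPKM in the others, and myeloid and mast cell markers 43.9 FPKM and 7.45 to 15.7 FPKM. The part of these cells, or of NKT17 cells, in Tbx21 was not tested. Against all 9 thymic libraries of set A together, DN1eP differed in Tbx21 by 0.386 (two-sided exact permutation test, p = 0.498).

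Tbx21 in DN1eP-NKT overlapped stages 1 and 2 and lay below stage 3. The values were 19.9, 39.8, 49.6 and 57.6 FPKM in DN1eP-NKT, against 14.5 and 30.2 FPKM in NKT-1, 26.8 to 56.1 FPKM in NKT-2 and 84.0 to 118 FPKM in NKT-3. Against NKT-2, 1 DN1eP-NKT library lay below the range, 2 lay within it and 1 lay above. DN1eP-NKT minus NKT-3 was -1.35 ± 0.31 (limma adjusted p = 0.00211), where 8.39% of genes were called lower. DN1eP-NKT minus NKT-2 was -0.03 ± 0.29 (adjusted p = 0.974, 11.1% of genes called higher), and DN1eP-NKT minus NKT-1 was 0.86 ± 0.36 (limma adjusted p = 0.119, 8.49% of genes called higher).

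The lowest Tbx21 value of DN1eP-NKT came from library 1, the deep one. Without that library, DN1eP-NKT minus NKT-1 was 1.17 and passed (limma adjusted p = 0.0145), and without NKT-1 library 1 it was 0.35 (adjusted p = 0.737). The deep library 1 also held the lowest Tbx21 of NKT-1 and of NKT-2 in set B, at 14.5 FPKM and 26.8 FPKM. Whether depth has a part in this was not tested. Against all 9 thymic libraries of set B, DN1eP-NKT differed in Tbx21 by -0.271 (two-sided exact permutation test, p = 0.61).

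Eomes was near or at 0 in every thymic NKT library. Set A gave 0.0168, 0.0875 and 0.0879 FPKM in NKT-1, 0.269, 0 and 0 FPKM in NKT-2 and 0.0325, 0 and 0 FPKM in NKT-3. Set B gave 0.215 and 0.544 FPKM in NKT-1, 0, 0.488, 0.0156 and 0.0773 FPKM in NKT-2 and 0.322, 0 and 0.228 FPKM in NKT-3. The stages overlapped in both sets, and 6 of the 18 thymic libraries list Eomes at 0.

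None of the 6 differences of Eomes between thymic stages passed the threshold. They ran from -0.28 to 0.06 on the log2(FPKM + 1) scale, with limma adjusted p of 0.85 to 1. The deposited intervals put at most 18.7 fragments behind any of these values. At these depths 3 fragments are worth 0.0323 to 0.0472 FPKM of Eomes in the thymic libraries of set A and 0.0582 to 0.812 FPKM in those of set B, so that a difference below these levels was not detectable.

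DN1eP cells had Eomes where thymic NKT cells had almost none. The 4 DN1eP libraries stood at 1.21, 5.20, 4.78 and 3.63 FPKM, a mean of 3.71 ± 1.79 FPKM, and all lay above the 9 thymic libraries of set A, which reached 0.269 FPKM. Between 16.3 and 86.1 fragments lie behind the DN1eP values. Eomes was higher in DN1eP than in NKT-1 by 2.04 ± 0.49 (limma adjusted p = 0.00245), than in NKT-2 by 2.02 ± 0.49 (adjusted p = 0.00325) and than in NKT-3 by 2.11 ± 0.49 (adjusted p = 0.00371). In the last comparison 16.2% of all genes were called higher in DN1eP. Because the pseudocount of 1 exceeds every thymic value, these differences understate the ratio of levels. An exact permutation test over the 13 libraries of set A gave a difference of 2.06 (two-sided p = 0.0028, the smallest the design allows).

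The deep DN1eP library 1 held the lowest Eomes of its group. DN1eP minus NKT-3 from that library alone, at a depth like that of the thymic libraries, was 1.13 (limma adjusted p = 0.115), with the lone library assumed to vary like the other groups. The summed markers of myeloid and mast cells were 469 to 651 FPKM in DN1eP, against 0.225 to 135 FPKM in the thymic libraries of set A. In DN1eP minus NKT-3, 8 of the 9 tested genes of that list were called higher, beside 16.2% of all genes. Some of the tested genes, Mpo and Ctsg among them, passed the filter on low values only through DN1eP. Ncr1, an activating receptor of NK cells, was at 42.1, 60.0, 45.8 and 49.3 FPKM in DN1eP, against 0 to 3.82 FPKM in the same thymic libraries. The NK cell list as a whole summed to 1890 to 3420 FPKM in DN1eP and 3020 to 4030 FPKM in NKT-3 of set A. Of its 14 tested genes, 2 were higher (Ncr1 and Tyrobp) and 2 lower (Klra9 and Gzmc), with a median difference of -0.393. Over all genes, 16.2% were higher and 4.42% lower, with a median of 0.158, so the 2 higher genes are near the background. The part of myeloid, mast or NK cells in the Eomes of DN1eP was not tested.

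DN1eP-NKT cells also had Eomes, at 54.9, 4.65, 6.27 and 6.16 FPKM. The 9 thymic libraries of set B reached 0.544 FPKM, and the groups did not overlap. Eomes was higher in DN1eP-NKT than in NKT-1 by 3.05 ± 0.56 (limma adjusted p = 0.000255), than in NKT-2 by 3.33 ± 0.46 (adjusted p = 4.19e-06) and than in NKT-3 by 3.27 ± 0.49 (adjusted p = 1.43e-05, 15.0% of genes called higher). The exact permutation test over the 13 libraries of set B gave a difference of 3.24 (two-sided p = 0.0028, the smallest possible).

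One library carried much of the mean in DN1eP-NKT. Library 1, with 1630 fragments behind its value, had more Eomes than the other libraries of its group together, and the SD of the group was 24.6 FPKM. In libraries 2 to 4, 25.4 to 43.2 fragments lie behind each value. When single libraries were left out, DN1eP-NKT minus NKT-3 ran from 2.50 to 3.60 and passed the threshold each time (limma adjusted p at most 0.000226). Markers of NK cells differed in that library in both directions. Ncr1 was at 36.2 FPKM in library 1 and 1.17 to 4.23 FPKM in libraries 2 to 4, but Klrc1 at 121 FPKM and 197 to 257 FPKM. The NK cell list summed to 946 FPKM in library 1 and 945 to 1050 FPKM in libraries 2 to 4. Among the stroma markers, 8 of 9 tested were called higher in DN1eP-NKT than in NKT-3, beside 15.0% of all genes. The one not called was Thy1, which T cells express too. Col1a1, Col1a2, Fn1, Cxcl12 and Pdgfrb reached 1 FPKM only in DN1eP-NKT. They passed the filter on low values through that group, so the count is given as a description. Without Thy1 the stroma markers summed to 74.6 to 390 FPKM in DN1eP-NKT, lowest in library 1, and 0.076 to 1.01 FPKM in the thymic libraries of set B. What part stroma or NK cells have in the Eomes values was not tested.

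**Figure D2:**
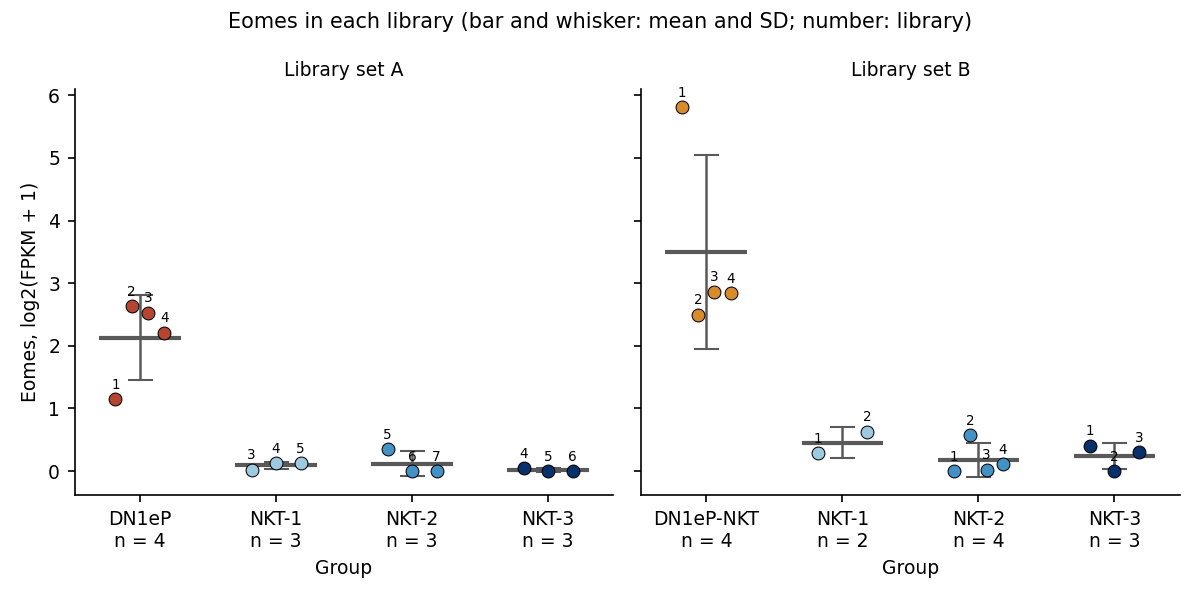
Eomes in each library as log2(FPKM + 1), for set A (left) and set B (right), with 1 numbered point a library and the mean and SD of each group. DN1eP (1.21 to 5.20 FPKM) and DN1eP-NKT (4.65 to 54.9 FPKM) stand above every thymic library of their set.

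DN1eP-NKT and DN1eP never share a library set, so their difference rests on a set term estimated from the 18 thymic libraries. That the term holds for these groups is assumed. With it, DN1eP-NKT minus DN1eP was -0.59 ± 0.35 for Tbx21 (limma adjusted p = 0.204) and 1.18 ± 0.53 for Eomes (adjusted p = 0.0894), neither past the threshold, while 32.1% of genes were called in either direction. With no set term, the Tbx21 difference turned to 2.31 (limma adjusted p = 0.0396) and Eomes gave 1.37 (adjusted p = 0.0157). The Eomes libraries overlapped, at 4.65 to 54.9 FPKM in DN1eP-NKT and 1.21 to 5.20 FPKM in DN1eP. Without DN1eP-NKT library 1 the Eomes difference was 0.41 (adjusted p = 0.343).

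**Figure D3:**
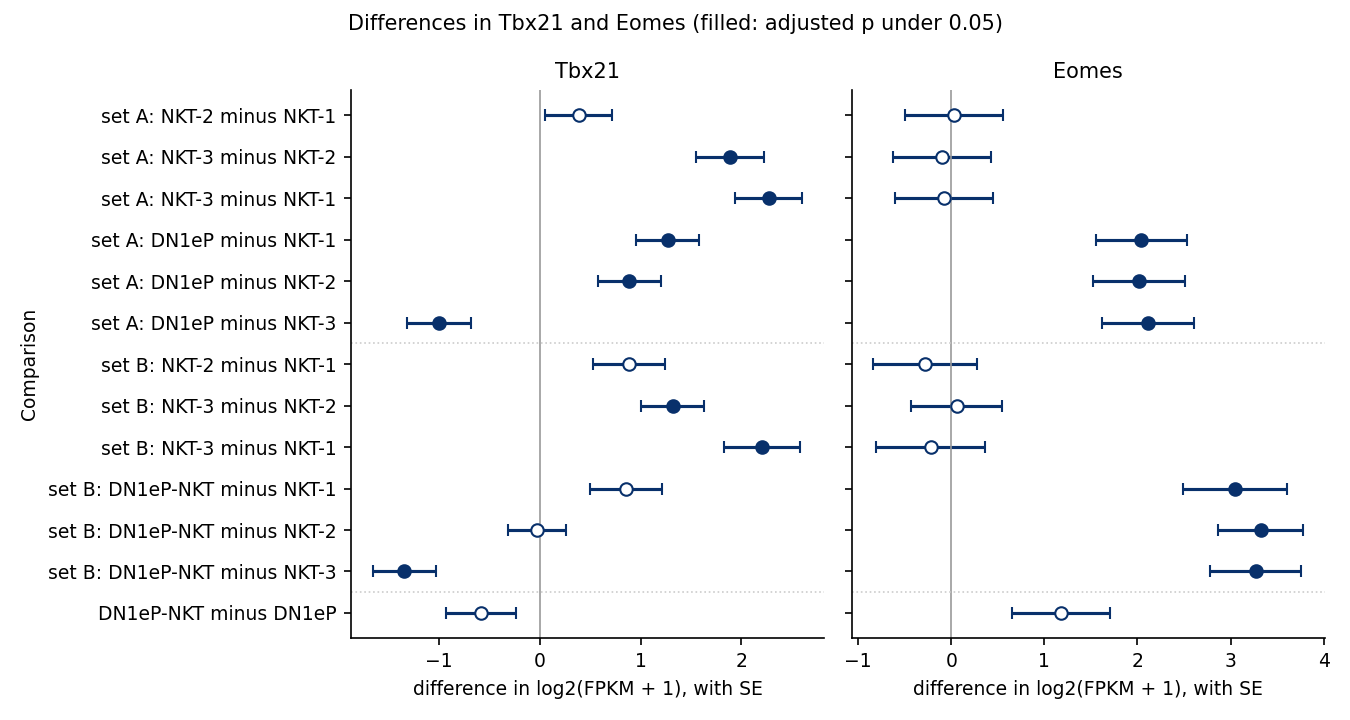
Differences in Tbx21 (left) and Eomes (right) on the log2(FPKM + 1) scale with their SE, filled where the adjusted p is under 0.05. Tbx21 differs between NKT-3 and the other thymic stages by 1.32 to 2.27, and Eomes differs where DN1eP or DN1eP-NKT is set against a thymic stage, by 2.02 to 3.33, with no call among the thymic stages.

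Set side by side on the per-length FPKM scale, the balance of both factors set DN1eP and DN1eP-NKT apart from the thymic stages. Eomes made up 12.9%, 42.7%, 40.5% and 37.2% of the sum of both in DN1eP. It made up 73.5%, 10.4%, 11.2% and 9.66% in DN1eP-NKT. In the thymic stages the share reached 4.77% in set A, the set of DN1eP, and 1.77% in set B, the set of DN1eP-NKT. Tbx21 levels differed between the sets, so the shares of DN1eP-NKT and DN1eP are not compared. Library 1 stands apart in DN1eP and DN1eP-NKT, with the lowest share in DN1eP and the highest in DN1eP-NKT. Across the 13 libraries of a set, Tbx21 and Eomes correlated at a Pearson r of 0.158 in set A and -0.291 in set B, given as a description. The high Eomes libraries were not those with the highest Tbx21, which were all NKT-3.

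**Figure D4:**
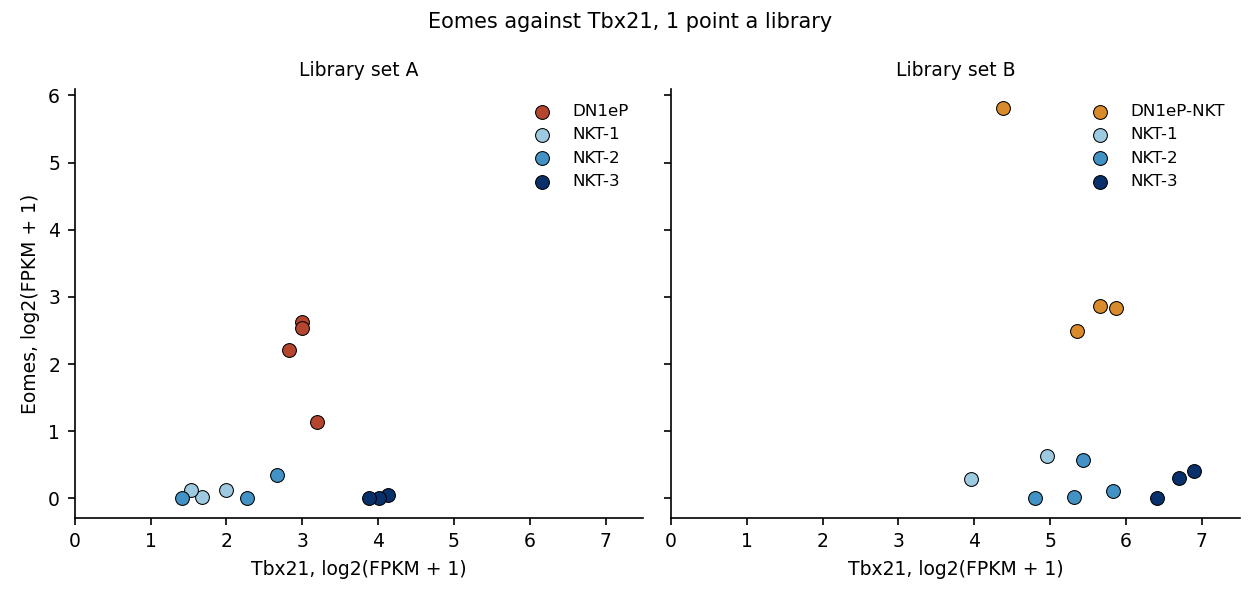
Eomes against Tbx21, both as log2(FPKM + 1), with 1 point a library in set A (left) and set B (right). NKT-3 lies far right at an Eomes of at most 0.322 FPKM, and DN1eP and DN1eP-NKT lie above all thymic libraries.

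Of the 17 genes listed for the T-box family, 3 passed the filter on low values: Tbx21, Eomes and Mga. The other 14 stayed at or below 1.90 FPKM in every library, and 4 of them were listed at 0 throughout. Mga, a large repressor that pairs a T-box with a MAX-binding region, ran from 2.31 to 17.8 FPKM over all libraries. It did not pass in any comparison of thymic stages. Mga was lower in DN1eP-NKT than in NKT-3 (difference in log2(FPKM + 1) of -0.88 ± 0.25, limma adjusted p = 0.0115), at 8.97, 5.54, 6.35 and 8.31 FPKM in DN1eP-NKT against 17.8, 11.6 and 13.4 FPKM in NKT-3.

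Type 1 and cytotoxic genes, a list of 28 known to lie under T-box control, were mostly higher in stage 3, the stage with the most Tbx21. Of the 24 tested, 20 were higher and 0 lower in NKT-3 than in NKT-1 of set A, and 21 were higher and 0 lower in set B, where 5.24% and 8.14% of all genes were higher. The list's median difference was 2.92 in set A and 4.85 in set B, against -0.223 and -0.0836 over all genes. Klrb1c, the gene of the NK1.1 antigen used to sort the stages, is 1 of them and no independent finding. Gzmb, a granule protease, differed by 7.32 ± 0.68 in set A (limma adjusted p = 1.63e-07) and by 8.73 ± 0.76 in set B (adjusted p = 4.17e-08). It stood at 876, 889 and 680 FPKM in NKT-3 against 6.96, 5.12 and 1.67 FPKM in NKT-1 of set A. The chemokine gene Ccl5 differed by 7.23 in set A, the chemokine gene Xcl1 by 6.69 in set A and 8.12 in set B, and Fasl, a death ligand, by 6.40 in set B.

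The same list was high in both groups with Eomes. In DN1eP, 22 of 24 were higher than in NKT-1 and 23 higher than in NKT-2, with 0 lower in either, beside 14.7% and 17.9% of all genes called higher. CXCR3 was part of the DN1eP gate, and NKT-1 and NKT-2 were sorted as NK1.1-. Cxcr3 and Klrb1c are therefore no independent findings. Against NKT-3, 5 were higher and 1 lower in DN1eP (median -0.0461, against 0.158 over all genes), beside 16.2% of all genes higher and 4.42% lower. Both counts, of 24 tested, are near the background. Called higher there were Ccl3 (3.82 ± 0.91, limma adjusted p = 0.00568), Ccl4 (2.95 ± 0.63, adjusted p = 0.00261), Ccl5 (1.84, adjusted p = 0.00275) and the chemokine receptor gene Cx3cr1 (1.57, adjusted p = 0.00272). Ccl3 was at 3.74 FPKM in DN1eP library 1 and 58.7 to 117 FPKM in libraries 2 to 4, against 0.442 to 3.42 FPKM in NKT-3 of set A. Ccl4, Ccl5 and Cx3cr1 were also lowest in DN1eP library 1 of the DN1eP libraries, at 46.7, 5220 and 4.07 FPKM. Without library 1 of each group, 6 of the list were higher and 4 lower in DN1eP than in NKT-3. The share of all genes called in that setting is not given here.

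In DN1eP-NKT, 20 of the 24 were higher than in NKT-1 and 18 higher than in NKT-2, with 0 lower in either, beside 8.49% and 11.1% of all genes called higher. Against NKT-3, 2 were higher and 6 lower in DN1eP-NKT (median -0.636, against 0.0501 over all genes), beside 15.0% of all genes higher and 8.39% lower. The count of 2 higher of 24 is under the background share. The 2 higher were Gzma, which encodes granzyme A (4.21 ± 0.49, limma adjusted p = 7.42e-07), and Gzmb (2.66 ± 0.63, adjusted p = 0.00389). Gzma stood at 6450, 3990, 3560 and 3640 FPKM in DN1eP-NKT, against 204, 263 and 227 FPKM in NKT-3. Lower in DN1eP-NKT were, among others, Klrb1c (-4.66 ± 0.44, adjusted p = 2.71e-08) and Xcl1 (-3.75 ± 0.66, adjusted p = 0.000238). Because the thymic stages were sorted on NK1.1, Klrb1c is no independent finding against any of them. Ifng, which encodes interferon gamma, did not pass against NKT-3, at 93.2 to 148 FPKM in DN1eP-NKT and 117 to 197 FPKM in NKT-3.

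Among 20 receptors and STAT pathway genes upstream of both factors, 6 were higher and 1 lower in NKT-3 than in NKT-1 of set A, and 9 higher and 2 lower in set B. Of all genes, 5.24% were higher and 20.1% lower in set A, and 8.14% higher and 14.0% lower in set B. Il2rb, Il12rb2 and Il18rap are on the type 1 list as well, so the lists are not separate. Stat4, which carries the IL-12 signal to Tbx21, was higher in NKT-3 by 4.56 ± 0.36 in set A (limma adjusted p = 9.78e-10) and by 4.84 ± 0.40 in set B (adjusted p = 1.25e-09). Il12rb2, the inducible chain of the IL-12 receptor, was higher by 4.37 in set A and 5.51 in set B, and Ifngr1, a chain of the interferon gamma receptor, by 4.10 and 4.16. Stat4 was also high in both groups with Eomes, at 71.0 to 97.5 FPKM in DN1eP and 45.4 to 61.7 FPKM in DN1eP-NKT, against 0.614 to 1.25 FPKM in NKT-1 of set A and 0.424 to 2.03 FPKM in NKT-1 of set B.

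Against NKT-3, 6 receptor and STAT genes were higher and 1 lower in DN1eP, and 2 were higher and 4 lower in DN1eP-NKT. Over all genes the shares were 16.2% higher and 4.42% lower in DN1eP, and 15.0% higher and 8.39% lower in DN1eP-NKT, so the 1 lower gene and the 2 higher genes of 20 are near the background or under it. Il2rb, the receptor chain shared by IL-2 and IL-15, was lower in DN1eP (-0.65, limma adjusted p = 0.0386) and in DN1eP-NKT (-0.69, adjusted p = 0.0255) than in NKT-3. Ifngr2 was higher in DN1eP by 3.45 ± 0.65 (adjusted p = 0.00112), although DN1eP library 1 stood at 0.966 FPKM and libraries 2 to 4 at 23.0 to 24.5 FPKM. Il12rb1 was higher in DN1eP-NKT by 1.69 ± 0.24 (adjusted p = 4.14e-06). The higher and lower counts in DN1eP minus NKT-3 became 2 and 2 under quantile normalization and 4 and 3 under upper-quartile scaling. The shares of all genes called under these scalings are not given here, so the counts are a description.

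Of 24 tested transcription factors that act on or with Tbx21 and Eomes, 5 were higher and 8 lower in NKT-3 than in NKT-1 of set A, and 6 higher and 8 lower in set B. The shares over all genes were 5.24% higher and 20.1% lower in set A, and 8.14% and 14.0% in set B. Prdm1 and Bhlhe40 are also on the type 1 list, and Lef1 on that of NKT2 and NKT17 genes. Id3, an inhibitor of E proteins, was lower in set A (-3.84 ± 0.42, limma adjusted p = 3.48e-07) and in set B (-4.48 ± 0.47, adjusted p = 1.2e-07). Zbtb16, the gene of the NKT lineage factor PLZF, was lower in set A (-2.23 ± 0.33, adjusted p = 1.7e-05). Bhlhe40, a cofactor of interferon gamma expression, was higher by 2.58 in set A and 5.04 in set B. Against NKT-3, 6 were higher and 1 lower in DN1eP (16.2% and 4.42% of all genes), among them Tcf7, which encodes TCF1 (1.74 ± 0.32, adjusted p = 0.000733), and Id2, the one lower (-1.10 ± 0.31, adjusted p = 0.014). The count of 1 lower of 24 is near the background. In DN1eP-NKT 2 were higher and 8 lower than in NKT-3 (15.0% and 8.39% of all genes), the higher ones being Id3 (2.28 ± 0.39, adjusted p = 9.09e-05) and Irf4 (2.12 ± 0.30, adjusted p = 5.71e-06). The count of 2 higher of 24 is under the background share.

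Genes of the NKT2 and NKT17 subsets, in which T-bet is low, included some that were lower in stage 3. Of 19 tested, 0 were higher and 9 lower in NKT-3 than in NKT-1 of set A, and 0 higher and 8 lower in set B, beside 20.1% and 14.0% of all genes called lower. In NKT-2 minus NKT-1, 3 were higher and 1 lower in set A and 0 were called in set B, beside 0.489% and 0.214% of all genes called in either direction. The chemokine receptor gene Ccr7 differed by -5.38 ± 0.80 in set A (limma adjusted p = 5.07e-05) and -6.09 ± 0.90 in set B (adjusted p = 3.99e-05), and Il17rb by -3.08 and -4.29. In DN1eP, 14 were higher and 0 lower than in NKT-3 (16.2% of all genes higher), led by Il17f, which encodes an IL-17 cytokine (5.50 ± 0.99, adjusted p = 0.001). Il17f stood at 2.16 FPKM in DN1eP library 1 and at 146 to 200 FPKM in libraries 2 to 4. The whole list summed to 555 FPKM in DN1eP library 1 and 1320 to 1490 FPKM in libraries 2 to 4, against 281 to 475 FPKM in NKT-3 of set A. Of 7 listed markers of gamma-delta T cells, 3 were tested, and 3 were higher in DN1eP than in NKT-3. Blk is among them and is also on the NKT2 and NKT17 list. These markers summed to 49.6 to 284 FPKM in DN1eP and 7.17 to 24.5 FPKM in NKT-3 of set A. The part of gamma-delta T cells in the NKT17 genes was not tested. In DN1eP-NKT, 2 of the 19 NKT2 and NKT17 genes were higher and 2 lower than in NKT-3 (15.0% and 8.39% of all genes), Il13 among the higher (4.19 ± 0.43, adjusted p = 4.52e-08). Both counts are near the background.

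NK cell markers were also higher in stage 3. Of 14 tested, 13 were higher and 0 lower in NKT-3 than in NKT-1 of either set. Of all genes, 5.24% were called higher in set A and 8.14% in set B. Klrd1 and Itga2 are also on the type 1 list. The NK cell markers summed to 3020 to 4030 FPKM in NKT-3 against 10.3 to 213 FPKM in NKT-1 of set A. In set B they summed to 2070 to 2600 FPKM in NKT-3 against 17.3 to 21.7 FPKM in NKT-1. Klra genes among them have near-identical copies between which reads can be split, so single values are uncertain. Ncr1, which defines NK cells more narrowly, was at 0.544 to 3.82 FPKM in NKT-3 and listed at 0 in all 5 NKT-1 libraries. What part NK cells have in the stage 3 values was not tested.

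**Figure D5:**
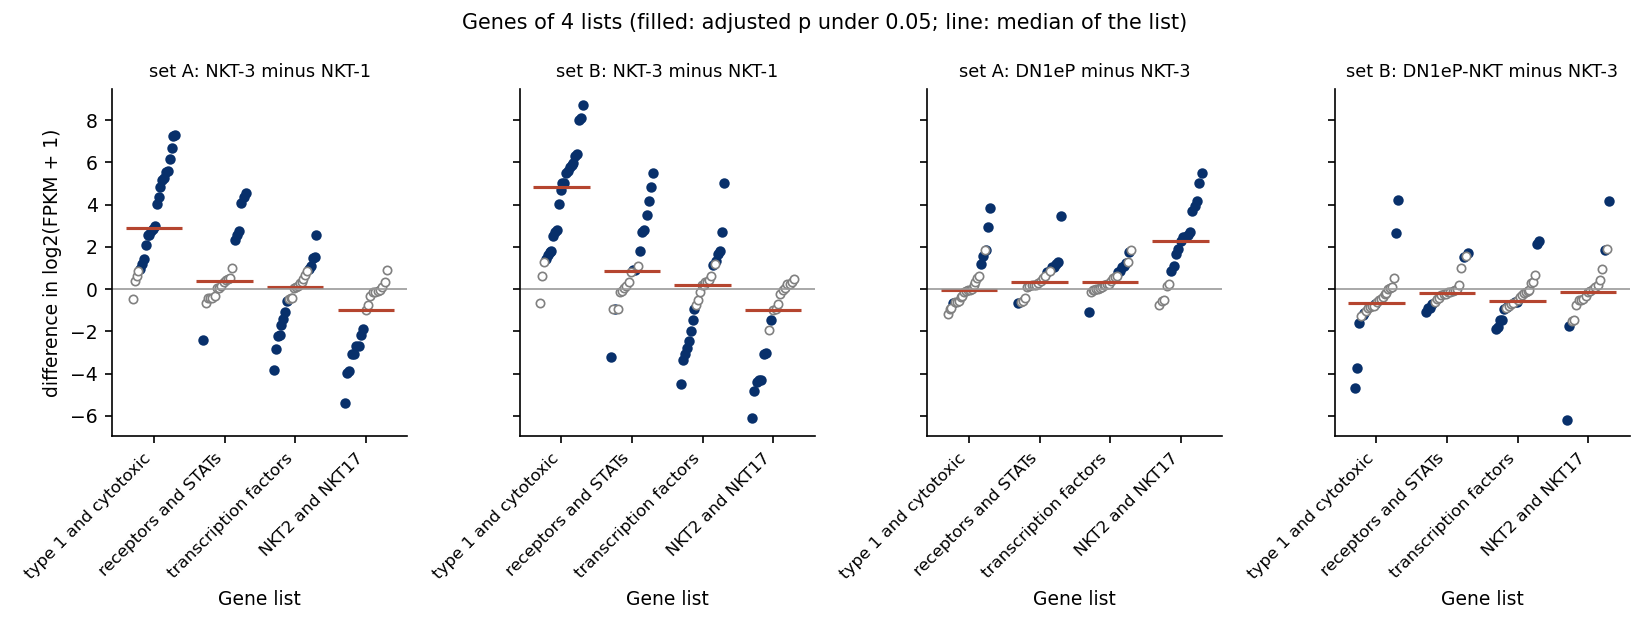
Differences in log2(FPKM + 1) for the tested genes of 4 lists in 4 comparisons, 1 point a gene, filled where the adjusted p is under 0.05, with the list's median as a line. Type 1 and cytotoxic genes lie mostly above 0 in NKT-3 minus NKT-1 (medians 2.92 and 4.85) and on both sides of 0 in DN1eP or DN1eP-NKT minus NKT-3 (medians -0.0461 and -0.636).

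The genes most like Tbx21 across libraries were Gimap3, Chsy1, Gimap5, Klra3 and Ctsd, by the lower of the Pearson correlations within set A and within set B, over 13 libraries each. The search covered 7744 genes with a mean of at least 5 FPKM. That correlation was 0.923 for Gimap3, 0.920 for Chsy1, 0.903 for Gimap5 and 0.895 for both Klra3 and Ctsd. Gimap3 encodes a GTPase of lymphocytes and stood at 421, 372 and 375 FPKM in NKT-3 against 16.8, 37.9 and 49.1 FPKM in NKT-1 of set A. Chsy1, which encodes a chondroitin sulfate synthase, stood at 137, 99.1 and 125 FPKM in NKT-3 against 28.7, 26.7 and 28.4 FPKM in NKT-1 of set A. Like Tbx21, both were highest in NKT-3 in both sets.

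For Eomes, genes with a like pattern among the 7745 searched were Gp49a (0.924), Rnf19b (0.890), Exoc4 (0.882) and Lilrb4 (0.880). Gp49a and Lilrb4 are near-identical neighbours between which reads can be split, so their values are uncertain. Rnf19b, which encodes a ubiquitin ligase, stood at 7.20, 19.5, 15.3 and 8.16 FPKM in DN1eP against 2.79 to 7.16 FPKM in the thymic libraries of set A, and at 116, 105, 87.6 and 90.5 FPKM in DN1eP-NKT against 17.5 to 30.4 FPKM in those of set B. Gp49a shared with Eomes the place of library 1, at 1.70 FPKM in DN1eP library 1 and 28.7 to 46.7 FPKM in libraries 2 to 4, and at 11.5 FPKM in DN1eP-NKT library 1 and 0.690 to 1.84 FPKM in libraries 2 to 4. In the thymic libraries the genes differed. Gp49a was at 3.54 FPKM in NKT-2 library 6 and 1.83 FPKM in NKT-1 library 3, above DN1eP library 1. Eomes was at 0 and 0.0168 FPKM in those 2 thymic libraries. Eomes reached 1 FPKM in 8 of 26 libraries, those of DN1eP and DN1eP-NKT, so the correlations rest on these.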

How the data were processed

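Total RNA of 26 sorted or cultured thymocyte samples was sequenced. The deposited values are FPKM per gene, which the authors made with TopHat2 2.0.6 and Cufflinks 2.1.1 on mm9, per the submitters' processing notes. Cufflinks divides reads among overlapping transcripts, and no strand setting is given in the sources used here. Values sharing a symbol were added. Left out were 86 symbols that some library lacks and 13 whose estimate failed or was capped.

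Genes reaching 1 FPKM in 4 libraries (11663) were tested as log2(FPKM + 1) with limma 3.58.1 under R 4.3.3 (robust eBayes with a trend), with a coefficient for each group in each library set. The Benjamini-Hochberg adjustment ran over all these genes, with a threshold of 0.05. The exact permutation tests used SciPy 1.17.1, and both members were tested in each set. Sets were separated at a median of 11 FPKM. Depth was read from the deposited intervals of genes with 10 to 30 fragments. Over all genes at 20 to 100 FPKM, the median half-width of the interval in a library was 5.53% to 23.7% of the value. Intervals and floors cover counting error only. On simulated data with 200 changed genes, 82% of 4-fold and 23% of 2-fold changes were recovered in NKT-3 minus NKT-1 of set B (11663 genes).

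The members, lists and sets were chosen with earlier results of these data known. List genes are named as up to 4 called with the largest difference per list in the comparisons with NKT-3, of which a part is printed; the few others (Ncr1, other single cell type markers, Ifng, Il2rb, Stat4 levels) were chosen after their values were seen. Alternatives were another pseudocount (0.1), no filter or 5 FPKM, upper-quartile and quantile scaling, array weights, fewer groups, other set terms, a replicate block, the highest row per symbol and left-out libraries. Leaving out library 1 of each group and keeping only libraries of like depth were added after seeing the data. One gene that the rule on likeness names is not reported here.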

Additional observations from a re-analysis of the deposited data

Results flagged for a closer look

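Eomes in DN1eP-NKT library 1 (54.9 FPKM) lay far from the other 3 libraries of its group (4.65 to 6.27 FPKM), the gap being 0.968 of the range of the group. Eomes in NKT-2 library 2 (0.488 FPKM) lay far from the other 3 NKT-2 libraries of set B (0 to 0.0773 FPKM), with a gap of 0.842 of the range and about 1 fragment behind it. In all, 12 groups of libraries of libraries were examined in this way, and chance marks about 1 in 20.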

How the results depend on the processing

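For Tbx21, 160 of 180 alternative values kept their side of the threshold, 15 no longer passed and 2 newly passed. The remaining 3 changed sign where the main or the alternative value passed. For Eomes, 175 of 180 were kept, 4 no longer passed and 1 newly passed. A change of sign where neither value passed counts as kept. Tbx21 in DN1eP-NKT minus NKT-2 is such a case, at -0.03 in the main fit and -0.09 to 1.36 over the alternatives. The least stable call was Tbx21 in DN1eP minus NKT-2. It did not pass with no filter (0.89), quantile normalization (0.73), array weights (0.76), only the groups compared (0.89), an additive set term (0.70), with libraries 6 of NKT-2 and 5 of NKT-3 left out (0.54) or at like depth (1.08), and single libraries left out gave 0.54 to 1.17. With no set term it turned to -0.96. Tbx21 in DN1eP minus NKT-3 ran from -1.07 to -0.94 with single libraries left out, and did not pass with no set term (-2.33) or at like depth (-0.81). Without a set term, Tbx21 did not pass in NKT-3 minus NKT-2 (1.38), DN1eP minus NKT-1 (0.18) or DN1eP-NKT minus NKT-3 (-0.020), passed in DN1eP-NKT minus NKT-1 (2.49), and turned to 2.31 in DN1eP-NKT minus DN1eP, as it did with only those groups (2.31). Tbx21 in DN1eP-NKT minus NKT-1 passed with array weights (1.03) and ran from 0.35 to 1.36 with single libraries left out. Eomes did not pass in DN1eP-NKT minus NKT-1 with only those groups (3.05), nor in DN1eP minus NKT-3 at like depth (1.13). Eomes in DN1eP-NKT minus DN1eP passed with no set term (1.37) and ran from 0.41 to 1.51 with single libraries left out. The cause was not tested.

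Over all groups the numbers did not pair the libraries (11 of 44 same-numbered pairs correlated above 0.1, median 0.0135), but the 3 deep libraries numbered 1 in set B did deviate together, with r of 0.431 to 0.484 between the libraries of NKT-1, NKT-2 and DN1eP-NKT. With the replicate block, Tbx21 in DN1eP minus NKT-2 (0.79) and minus NKT-3 (-1.02) and Eomes in DN1eP minus NKT-2 (1.75) and minus NKT-3 (1.92) did not pass, and no other call of either gene changed.

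Counts of genes called moved more. DN1eP minus NKT-3 called 2405 genes, against 316 with only the groups compared, 1016 with the block and 57 at like depth. DN1eP minus NKT-2 called 3443, against 1372, 923 and 981, and DN1eP minus NKT-1 called 3926, against 2401 with only the groups compared and 1546 at like depth. DN1eP-NKT minus DN1eP called 3748, against 2385 with the block, 6136 with no set term and 7467 with only the groups compared. NKT-2 minus NKT-1 called 57 in set A and 25 in set B, and 3 to 352 and 3 to 93 over the alternatives. NKT-3 minus NKT-2 called 1361 in set A and 2516 in set B, and 861 to 3438 and 1460 to 3866 over the alternatives. NKT-3 minus NKT-1 called 2587 in set B, against 4404 with an additive term, and DN1eP-NKT minus NKT-3 called 2725, against 4554 with array weights. The median of all genes in NKT-3 minus NKT-1 of set A moved by scaling, from -0.223 to -0.0665 (upper quartile) and 0.00185 (quantile), and in DN1eP minus NKT-3 from 0.158 to -0.0595 and -0.0547. Depth limits Eomes: in the shallow libraries of set B about 1 fragment decides whether it is listed above 0.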
